A study of Mus musculus with 8 samples.

Results

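The genes described here are 7 factors that mark the primed state of mouse pluripotency. They are the transcription factor genes Otx2, Pou3f1, Zic2, Zic5 and Grhl2, the growth factor gene Fgf5 and the adhesion gene Cdh2. They were named by symbol and found in the count table through their Entrez identifiers, which gave a row for 6 of the 7 among 21950 genes. Zic2 had no row in the table and was not analysed here.

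The study made mouse oocytes from pluripotent stem cells in culture, and compared the cells at the start of that process with germ cells from the embryo. RNA was sequenced in bulk from 4 pools of d6PGCLC and 4 pools of E12.5 PGC, each pool from an independent experiment. PGCLC are primordial germ cell-like cells, and d6 marks day 6 of their induction, which the labels place at day 8 of the culture. They came from a single female iPSC line, BVSC-iPSC, made from tail tip fibroblasts of an adult and carrying Blimp1-Venus and Stella-ECFP transgenes. The line first became epiblast-like cells (EpiLC) and was then induced with BMP4, SCF, LIF and EGF, and the labels state that cells with both reporters were collected. The E12.5 PGC were primordial germ cells of female gonads from inbred C57BL/6J fetuses, collected by FACS for SSEA1 and integrin β3 and pooled. The origin and stage of the cells, the genetic background, the culture and, by the labels, the markers used for sorting all differed between the groups, so that their parts in any difference cannot be told apart.

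Pluripotent cells of the mouse pass from a naive state, that of the early epiblast and of stem cells in 2i and LIF, to a primed state after implantation. OTX2 and POU3F1 (also called OCT6) direct that passage on the chromatin, FGF5 is a secreted ligand widely used as a marker of the post-implantation epiblast, and ZIC2, ZIC5 and GRHL2 are transcription factors switched on or redirected to new enhancers in the formative and primed states. N-cadherin, the product of Cdh2, is a calcium-dependent adhesion molecule that takes over from E-cadherin when epithelial cells become mesenchymal. PGC and PGCLC both descend from a cell state close to the post-implantation epiblast, and loss of OTX2 is a known step of germ cell specification.

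Between 8054596 and 12024841 reads were counted per library of d6PGCLC, and between 7991437 and 11166023 per library of E12.5 PGC. At this depth 3 counts, used as the floor of detection, corresponded to between 0.249 and 0.375 CPM, which are counts divided by the size of the library and put on a common scale. PCR copies of a molecule could not be recognized, so that the floor covers counting error only. The 2 reporter genes, Prdm1 (which encodes BLIMP1) and Dppa3 (which encodes STELLA), were abundant in both groups, at 444 ± 43.7 and 691 ± 118 CPM in d6PGCLC and at 192 ± 18.1 and 384 ± 42.5 CPM in E12.5 PGC (mean ± SD, n = 4). Some libraries stood apart. Y-linked genes had 99 counts in E12.5 PGC replicate 4, which is labelled female, and 0 in the other 7 libraries. The summed level of 10 dissociation response genes was 1116 CPM in E12.5 PGC replicate 2 and 475 to 557 CPM in replicates 1, 3 and 4. The fibroblast collagen gene Col1a1 was at 3.87 and 11.8 CPM in d6PGCLC replicates 2 and 4.

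All of the measured members were weakly expressed in both kinds of cell, and those that differed were lower in the cells made in culture. Cdh2, Pou3f1, Fgf5 and Zic5 were lower in d6PGCLC than in E12.5 PGC by edgeR's quasi-likelihood test with Benjamini-Hochberg adjustment over all genes, by 5.12-, 2.80-, 2.81- and 3.37-fold. Otx2 and Grhl2 did not pass the test. Thus 4 of the 6 members were called lower and 0 higher, where 15.4% of all genes tested were called lower, 16.1% higher and 31.5% in either direction. These shares, and the shares of all genes called that are given below, count the 4940 genes with no read in any library. Such genes could not be called, so the shares among genes with a read are larger. No member was higher at an unadjusted p under 0.05 either, and DESeq2 and edgeR's likelihood ratio test also called 4 lower and 0 higher. The count of lower members was 3 in 5 of the 8 fits with 1 library left out (d6PGCLC replicate 2, 3 or 4, or E12.5 PGC replicate 1 or 2) and under a filter on low counts, which removed Zic5. The median log2 fold change of the 6 members was -1.49, beside -0.026 for the 17010 genes with a count. When a log2 fold change of 2 or more in size was also required, Cdh2 alone was called. Of all genes 6.62% were, with 3.37% lower and 3.24% higher in d6PGCLC. The members so called numbered 2 without d6PGCLC replicate 1 (Zic5 at -2.29), d6PGCLC replicate 3 (Fgf5 at -2.003) or E12.5 PGC replicate 4 (Zic5 at -2.02). The samples are bulk pools, in which fewer cells of a type and less RNA per cell cannot be told apart.

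**Figure D1:**
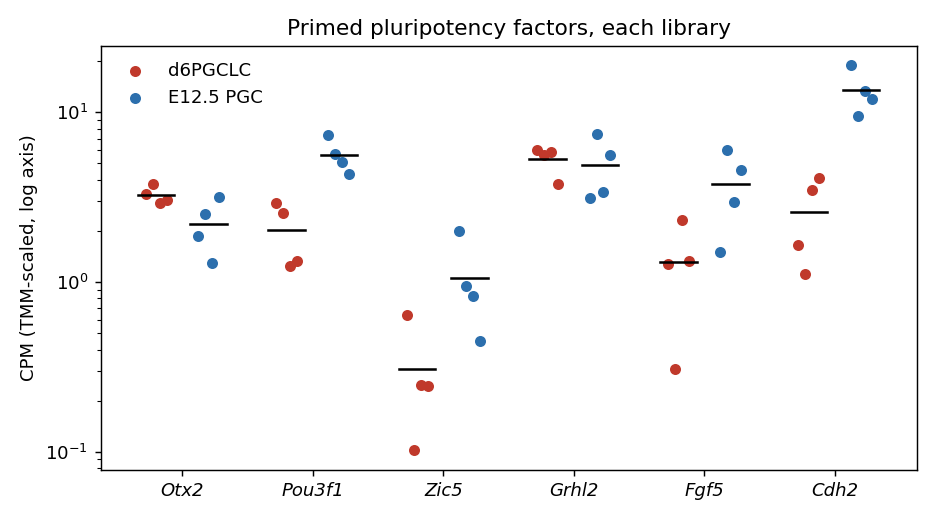
Level of each measured primed factor in each of the 8 libraries, in TMM-scaled CPM on a log axis. Points are libraries and bars are group means. The d6PGCLC points lie below every E12.5 PGC point for Pou3f1 (at most 2.94 against at least 4.33 CPM) and Cdh2 (at most 4.12 against at least 9.58 CPM), and the groups overlap for the other 4 genes.

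The sequences just upstream of the start sites are shown for Fgf5 and Zic5, the members past the test whose promoter was in the RefSeq table used here. Each is the run of 250 bases that ends at the base before the RefSeq start on GRCm38.p6, 5′ to 3′ on the strand of the gene, with every CpG dinucleotide in capitals.
Fgf5, chr5:98253934-98254183, plus strand: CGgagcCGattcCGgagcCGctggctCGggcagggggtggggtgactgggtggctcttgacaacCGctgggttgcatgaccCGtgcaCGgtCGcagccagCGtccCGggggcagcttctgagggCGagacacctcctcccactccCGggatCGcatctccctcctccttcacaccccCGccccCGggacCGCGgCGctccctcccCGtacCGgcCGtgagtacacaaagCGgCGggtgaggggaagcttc
Zic5, chr14:122465659-122465908, minus strand: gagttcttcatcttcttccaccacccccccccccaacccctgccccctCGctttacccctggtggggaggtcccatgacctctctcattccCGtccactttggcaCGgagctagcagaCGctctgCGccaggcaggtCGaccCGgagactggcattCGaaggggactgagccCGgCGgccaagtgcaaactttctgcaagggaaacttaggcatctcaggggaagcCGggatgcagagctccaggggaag
The upstream run of Fgf5 held 24 CpG and that of Zic5 held 11. Over the whole promoter window of 300 bases, which goes on for 50 bases past the start, Fgf5 had 29 CpG and a GC content of 68.3%, and 87.1% of the 32851 RefSeq promoters of that length had fewer CpG. Zic5 had 15 CpG and a GC content of 62.7%, with fewer CpG in 65.4% of promoters. The median promoter had 7 CpG and a GC content of 52.7%. Motifs were searched on both strands by their letters, namely TAATCC for OTX factors, ATGCAAAT for octamer-binding factors such as POU3F1, AACCNGTT for GRHL factors, CAGCAGG for ZIC factors, CACGTG (the E-box) and TATAAA (the TATA box). The only match in the Fgf5 window was a TATAAA located 34 bases after the start, and the Zic5 window held none. These letters are found in 7.06%, 1.74%, 2.09%, 10.5%, 7.15% and 13.6% of all promoters, in the same order. Otx2 has 4 start sites in the same table, with 6, 8, 16 and 11 CpG, and the windows held a TAATCC before one start and a TATAAA before another as the only matches.

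Otx2 encodes a homeodomain factor that drives the exit from the naive state and restrains entry into the germ line. The gene lies on chr14:48656781-48667644, minus strand (RefSeq gene bounds on GRCm38.p6, as for the other members). Its reads numbered 26, 37, 35 and 25 in d6PGCLC replicates 1 to 4 and 15, 24, 14 and 35 in E12.5 PGC replicates 1 to 4. On the CPM scale these were 3.32, 3.77, 2.90 and 3.03 in d6PGCLC and 1.87, 2.53, 1.29 and 3.16 in E12.5 PGC. The d6PGCLC libraries lay close together, and the groups overlapped because E12.5 PGC replicate 4 was above the 2 lowest d6PGCLC libraries. The level was 3.25 ± 0.383 CPM in d6PGCLC and 2.21 ± 0.808 CPM in E12.5 PGC (mean ± SD, n = 4), a log2 fold change of 0.55 (SE 0.30) that did not pass edgeR's test (adjusted p = 0.1995). Otx2 was therefore the member with the highest point estimate in d6PGCLC relative to E12.5 PGC, but the difference did not pass the test. An annotated antisense transcript, Otx2os1, has its own row and had no reads in any library.

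Pou3f1 encodes a POU domain factor that binds with OTX2 at enhancers of the primed state. The gene lies on chr4:124657646-124660655, plus strand. It gathered 23, 25, 15 and 11 reads in d6PGCLC and 59, 54, 55 and 48 in E12.5 PGC, which is 2.94, 2.55, 1.24 and 1.33 CPM against 7.36, 5.68, 5.07 and 4.33 CPM. Every E12.5 PGC library was above every d6PGCLC library, and within d6PGCLC replicates 1 and 2 were above replicates 3 and 4. The log2 fold change was -1.48 (SE 0.30, adjusted p = 0.000466 with edgeR's quasi-likelihood test), and it passed the threshold whichever of the 8 libraries was left out, with values from -1.70 to -1.29. An exact two-sided permutation test on log2(CPM + 0.5) gave p = 0.0286, the smallest value that 4 against 4 libraries allow. The same permutation test gave p = 0.0286 for Cdh2, 0.0571 for Fgf5, 0.0571 for Zic5, 0.0857 for Otx2 and 0.686 for Grhl2. Fgf5 and Zic5, although called lower by edgeR, thus did not pass the same threshold by the permutation test. Pou3f1 and Cdh2 were the only 2 members without overlap between the groups, a state that 30.2% of all genes tested were in.

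Zic5 encodes a zinc finger factor of the ZIC family and lies on chr14:122459160-122465658, minus strand. Zic2 (chr14:122475384-122480328, plus strand) is its divergent neighbour, with 9726 bases between their start sites. Zic5 was the scarcest member, with 5, 1, 3 and 2 reads in d6PGCLC and 16, 9, 9 and 5 in E12.5 PGC. In 3 of the 4 d6PGCLC libraries it was at or below the floor of 3 counts. The levels were 0.638, 0.102, 0.249 and 0.242 CPM in d6PGCLC and 2.00, 0.947, 0.830 and 0.451 CPM in E12.5 PGC, so that the highest d6PGCLC library and the lowest E12.5 PGC library overlapped. The log2 fold change was -1.75 (SE 0.64, adjusted p = 0.0299 with edgeR's quasi-likelihood test). The call was lost without d6PGCLC replicate 2 (log2 fold change -1.47, adjusted p = 0.0960), replicate 3 (-1.67, 0.0755) or replicate 4 (-1.69, 0.0640) and without E12.5 PGC replicate 1 (-1.29, 0.162). The fold itself moved little without d6PGCLC replicate 3 or 4.

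Grhl2 encodes a grainyhead-like factor that opens chromatin at epithelial genes and keeps epithelial enhancers active in the primed state. It lies on chr15:37232821-37363569, plus strand. It had 47, 55, 70 and 31 reads in d6PGCLC and 25, 71, 37 and 62 in E12.5 PGC. In CPM these were 6.00, 5.60, 5.81 and 3.76 in d6PGCLC and 3.12, 7.47, 3.41 and 5.60 in E12.5 PGC. The E12.5 PGC libraries fell into a lower pair, replicates 1 and 3, and a higher pair, replicates 2 and 4, which spanned the d6PGCLC values. The log2 fold change of 0.11 (SE 0.27) was within the spread between libraries (adjusted p = 0.985, edgeR), and its sign turned to -0.043 without E12.5 PGC replicate 1 and to -0.035 without replicate 3.

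Fgf5 encodes a secreted fibroblast growth factor and lies on chr5:98254184-98277033, plus strand, directly downstream of the CpG-rich sequence printed above. Its reads numbered 10, 3, 28 and 11 in d6PGCLC and 12, 57, 32 and 51 in E12.5 PGC. The d6PGCLC levels were 1.28, 0.305, 2.32 and 1.33 CPM and the E12.5 PGC levels 1.497, 6.00, 2.95 and 4.60 CPM. Both groups were widely spread, by 7.61-fold between the highest and lowest d6PGCLC libraries and 4.01-fold between those of E12.5 PGC, and they overlapped through d6PGCLC replicate 3 and E12.5 PGC replicate 1. The group levels were 1.31 ± 0.824 and 3.76 ± 1.958 CPM, with a log2 fold change of -1.49 (SE 0.44, adjusted p = 0.0102 with edgeR's quasi-likelihood test). Without E12.5 PGC replicate 2, the library with high dissociation response genes and the highest Fgf5, the log2 fold change was -1.19 and the call was lost (adjusted p = 0.0580).

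Cdh2 had the largest difference among the members. The gene spans chr18:16588877-16809246, minus strand. It had 13, 11, 42 and 34 reads in d6PGCLC and 152, 91, 145 and 133 in E12.5 PGC, or 1.66, 1.12, 3.48 and 4.12 CPM against 19.0, 9.58, 13.4 and 12.01 CPM. The groups did not overlap, and within d6PGCLC replicates 3 and 4 were above replicates 1 and 2, the reverse of the order seen for Pou3f1. The mean was 2.60 ± 1.43 CPM in d6PGCLC and 13.5 ± 3.98 CPM in E12.5 PGC, a log2 fold change of -2.36 (SE 0.31, adjusted p = 2.11e-06 with edgeR's quasi-likelihood test). With any one library left out it stayed between -2.63 and -2.10 and past the threshold in 8 of 8 fits.

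**Figure D2:**
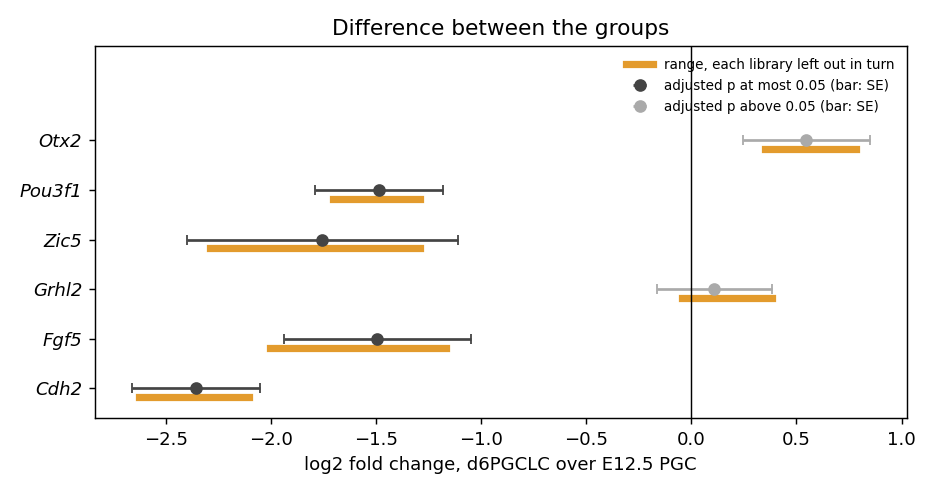
Log2 fold change of each measured primed factor, d6PGCLC over E12.5 PGC. Points are the fitted values with their SE, dark where the adjusted p is at most 0.05, and the orange bars give the range when each library is left out in turn. Cdh2, Fgf5, Zic5 and Pou3f1 lie at -2.36 to -1.48, and the orange bar of Grhl2 crosses 0.

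E12.5 PGC replicates 2 and 4 were above replicates 1 and 3 for Otx2, Grhl2 and Fgf5, and not for Pou3f1, Zic5 or Cdh2. These 2 libraries are also those with the high dissociation response genes and with the Y-linked reads, and the part of either in the members' levels was not tested. With both left out, in a fit chosen after the data had been seen, Pou3f1, Zic5 and Cdh2 remained lower in d6PGCLC at log2 fold changes of -1.63, -2.18 and -2.62. For Otx2, Grhl2 and Fgf5 the 2 libraries left out hold the highest E12.5 PGC levels, and for Cdh2 the lowest, while replicate 4 is also the lowest for Pou3f1 and Zic5, so that the direction in which the folds moved follows from that choice and tests nothing. The log2 fold change was -0.76 for Fgf5 (adjusted p = 0.347) and 1.05 for Otx2 (adjusted p = 0.0481, edgeR) in that fit. Summed over the 6 members, the level was 13.4 to 16.0 CPM in d6PGCLC and 26.9 to 34.8 CPM in E12.5 PGC, and most of the difference came from Cdh2.

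The spread within groups was set beside counting error. The chi-square of a member's counts per degree of freedom, which is near 1 when libraries differ by sampling alone, was 0.384 for Otx2, 1.49 for Zic5, 1.63 for Grhl2, 3.23 for Pou3f1, 5.58 for Fgf5 and 7.53 for Cdh2 in d6PGCLC. In E12.5 PGC it was 2.90 for Pou3f1, 3.12 for Otx2, 3.91 for Zic5, 8.76 for Grhl2, 9.44 for Cdh2 and 9.62 for Fgf5. The pools were prepared separately, and the values are a description of their spread.

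Levels were compared between genes per exonic length, as RPKM, which are counts per exonic length and per counted reads of the library. In d6PGCLC the order was Otx2 (1.37 ± 0.147 RPKM), Grhl2 (1.31 ± 0.250), Pou3f1 (0.650 ± 0.267), Fgf5 (0.524 ± 0.334), Cdh2 (0.488 ± 0.274) and Zic5 (0.123 ± 0.0905). Only Grhl2 and Pou3f1 were neighbours without overlapping libraries, and by a narrow margin (lowest Grhl2 at 0.9405 RPKM, highest Pou3f1 at 0.9362 RPKM). In E12.5 PGC the order was Cdh2 (2.57 ± 0.731 RPKM), Pou3f1 (1.86 ± 0.433), Fgf5 (1.55 ± 0.833), Grhl2 (1.25 ± 0.550), Otx2 (0.953 ± 0.346) and Zic5 (0.434 ± 0.269), and all neighbours overlapped. Cdh2 was thus the last but one in the cells from culture and the first in those from the embryo, and Otx2 the reverse. Of all genes in the table, 54.7% were lower than Otx2 in d6PGCLC and 59.4% lower than Cdh2 in E12.5 PGC, a share that counts the 4940 genes with no read.

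Several relatives of Grhl2 and Cdh2 were more abundant than they were. Grhl3, which also encodes a grainyhead-like factor, was at 34.9 ± 6.03 RPKM in d6PGCLC and 14.2 ± 1.36 RPKM in E12.5 PGC, 26.6- and 11.3-fold above Grhl2. Grhl1 was nearer, at 5.48 ± 1.34 and 6.50 ± 0.435 RPKM. Against Cdh2, the E-cadherin gene Cdh1 was 116-fold higher in d6PGCLC and 18.4-fold higher in E12.5 PGC, and the P-cadherin gene Cdh3 173- and 18.2-fold. The R-cadherin gene Cdh4 was the exception, at 0.672 ± 0.448 RPKM in d6PGCLC, near Cdh2, and at 0.516 ± 0.212 RPKM in E12.5 PGC, below it. The nearness in d6PGCLC rests on the exonic length used. By reads Cdh4 was below Cdh2 in each d6PGCLC library, with 6, 4, 13 and 17 against 13, 11, 42 and 34. Grhl2 was thus the scarcest of the 3 grainyhead-like genes in both groups, and Cdh2 was not the scarcest of the 4 cadherin genes in E12.5 PGC. In the OTX family it was the reverse, since Otx1 had 1, 0, 1 and 0 reads in d6PGCLC, under the floor of 3 in every library, and 7, 8, 18 and 8 reads in E12.5 PGC.

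**Figure D3:**
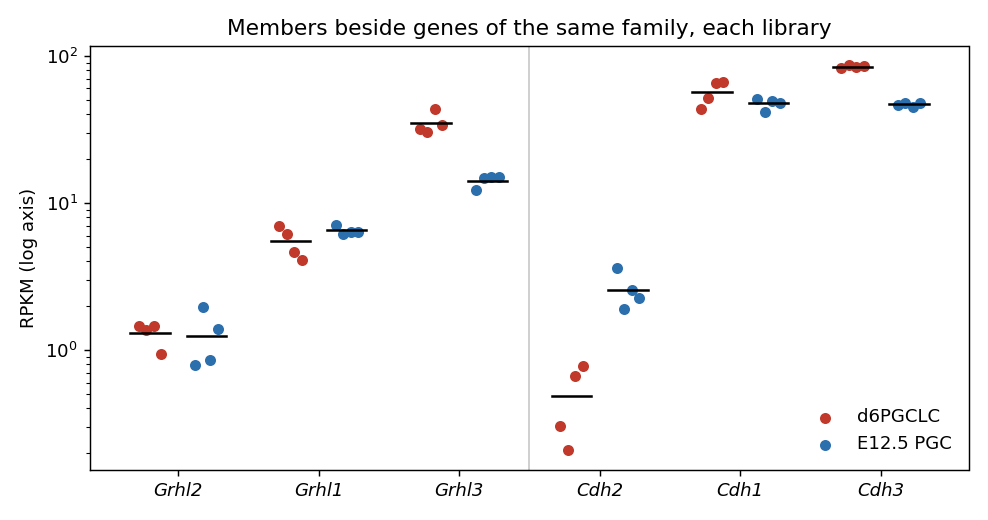
Grhl2 and Cdh2 beside relatives of the same family, in RPKM per library on a log axis, with bars at group means. Grhl3 lies above Grhl1 and Grhl2 in both groups, and Cdh2 lies below Cdh1 and Cdh3 by over 1 decade of the axis, less in E12.5 PGC (2.57 against 47.4 and 46.7 RPKM) than in d6PGCLC (0.488 against 56.6 and 84.2 RPKM).

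Among the relatives, Grhl3 and Cdh3 were higher in d6PGCLC at log2 fold changes of 1.33 and 0.89 (adjusted p = 9.56e-09 and 1.62e-08 with edgeR's quasi-likelihood test), each without overlap between the groups. Cdh1 (0.29, adjusted p = 0.0650) and Grhl1 (-0.21, adjusted p = 0.417) did not pass. Of 14 relatives, 11 of which had any read, 3 were higher, 1 (Otx1) was lower and 10 did not pass, beside 16.1% higher and 15.4% lower among all genes, and without d6PGCLC replicate 1 the higher ones numbered 5. The remaining higher one in the main fit was Fgf4, a relative of Fgf5, at 2.52 (adjusted p = 0.00158, edgeR). It had few reads, 31, 10, 18 and 8 in d6PGCLC and 2, 6, 1 and 3 in E12.5 PGC.

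A ratio of 2 genes within a library does not depend on the scaling of that library. The log2 ratio of Cdh2 to Cdh1 per length was -7.15, -7.96, -6.62 and -6.42 in d6PGCLC and -3.82, -4.45, -4.28 and -4.41 in E12.5 PGC, a difference of -2.80 between the means. The ratio did not overlap between the groups (exact two-sided permutation p = 0.0286, the smallest possible). N-cadherin RNA was thus lower relative to E-cadherin RNA in all 4 d6PGCLC libraries.

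Other genes of the epiblast and of EpiLC went in both directions. Of 21 such genes, 6 were higher in d6PGCLC, 7 lower and 8 did not pass, beside 16.1% higher and 15.4% lower among all genes. Their median log2 fold change was -0.40, or -0.21 over the 18 genes above the floor in either group, with the other group set at the floor where it did not exceed it, beside -0.026 for all genes with a count. The NODAL antagonists Lefty2 and Lefty1 led the higher genes, at log2 fold changes of 3.38 (SE 0.25) and 3.03 (SE 0.28). The SOXB1 factor gene Sox3 and the zinc finger gene Sall2 led the lower ones that averaged 10 counts or more, at -2.69 (SE 0.53) and -2.53 (SE 0.35). With a library left out, Sox3 ranged from -3.56 to -2.28.

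Naive pluripotency genes were mostly higher in d6PGCLC, with 9 of 13 higher, 0 lower and 4 not past edgeR's test. Among all genes, 16.1% were called higher and 15.4% lower. The 9 naive genes called higher include Dppa3, the gene of a reporter used in the sort. The list's log2 fold changes had a median of 0.93, beside -0.026 for all genes with a count. At an unadjusted p under 0.05, and by DESeq2, 0 were lower as well. Tfcp2l1 and Nanog, both core factors of the naive network, were at 633 ± 87.4 and 610 ± 79.5 CPM in d6PGCLC and at 259 ± 20.8 and 257 ± 22.4 CPM in E12.5 PGC, log2 fold changes of 1.29 and 1.25. Esrrb was higher by 0.88 on the log2 scale, and Klf4 did not pass (-0.29, adjusted p = 0.418, edgeR).

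**Figure D4:**
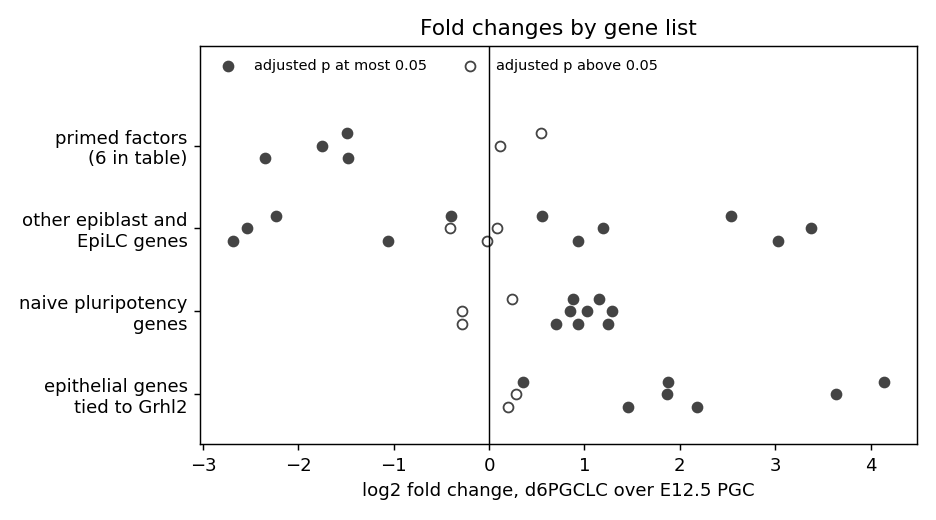
Log2 fold change, d6PGCLC over E12.5 PGC, of the 6 measured primed factors and of the genes of 3 lists with a mean of at least 10 counts, filled where the adjusted p is at most 0.05. The primed factors lie from -2.36 to 0.55, the other epiblast and EpiLC genes spread to both sides of 0 from -2.69 to 3.38, and none of the naive or epithelial genes is filled below 0.

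Genes around the ligand, the adhesion molecule and GRHL2 were also read, where 16.1% of all genes were called higher in d6PGCLC and 15.4% lower. Of the 4 FGF receptor genes, 2 were higher in d6PGCLC, 1 was lower and 1 did not pass. Fgfr2 was higher at a log2 fold change of 0.40 and Fgfr3 lower at -1.10, with overlapping libraries for Fgfr3. The other higher one lost its call without d6PGCLC replicate 1 or E12.5 PGC replicate 2, 3 or 4, which left 1. Of the 6 catenin genes, which link cadherins to the cytoskeleton and to WNT signalling, 3 were higher and 2 lower. Jup (plakoglobin, 2.35) and Ctnna1 (0.50) were higher, and the catenins of the nervous system Ctnnd2 (-3.84) and Ctnna2 (-1.28) were lower. Ctnna2 had 1, 7, 11 and 9 reads in d6PGCLC and 12, 17, 26 and 16 in E12.5 PGC, and its call was lost without d6PGCLC replicate 1 or 2 or E12.5 PGC replicate 3 (adjusted p up to 0.111, edgeR). Of 9 measured epithelial genes tied to GRHL2, 7 were higher in d6PGCLC and 0 lower by edgeR's test, and 0 were lower at an unadjusted p under 0.05 or by DESeq2. Their log2 fold changes had a median of 1.87, beside -0.026 for all genes with a count, while Grhl2 itself did not pass. The tight junction gene Cldn4 (4.14, SE 0.21) and the vesicle traffic gene Rab25 (3.64, SE 0.20) led them.

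Markers of other cells are given beside the comparison, in which 16.1% of all genes were called higher in d6PGCLC and 15.4% lower. The measured 10 germ layer markers were summed at 4.23 to 7.91 CPM in d6PGCLC and 31.3 to 35.1 CPM in E12.5 PGC, with 6 lower in d6PGCLC, 1 higher and 3 not past the test. Hand1 of the lateral mesoderm (-3.92) and Pax6 of the neural ectoderm (-2.98) led the lower ones that averaged 10 counts or more, and the mesoderm gene Tbx6 was higher (1.62). Of 12 measured gonadal somatic markers, 5 were lower in d6PGCLC, 1 higher (Col1a1, 4.24, and 2.91 to 4.80 with a library left out) and 6 did not pass. Their sum was 0.913 to 20.2 CPM in d6PGCLC and 4.06 to 12.52 CPM in E12.5 PGC. These ranges overlapped. The collagen genes, high in d6PGCLC replicates 2 and 4, were the only measured ones of the list with a positive log2 fold change. Without them, a removal that was not planned, the sum was 0.664 to 1.82 CPM in d6PGCLC. In E12.5 PGC it was 3.88 to 9.15 CPM, without overlap. The sum was then lower in d6PGCLC as Cdh2 was, but the choice of genes removed favours that direction. The collagen gene Col3a1 also had 28 reads in E12.5 PGC replicate 2, against 4, 2 and 1 in replicates 1, 3 and 4. The defining markers Wt1, Gata4, Nr5a1 and Pdgfra were low throughout, Wt1 at 0.451 to 1.68 CPM in E12.5 PGC and at 0 to 0.255 CPM in d6PGCLC. Each d6PGCLC library had at most 2 reads of any of these 4 genes. Of 10 measured endothelial and blood markers, 2 were higher in d6PGCLC, 0 lower (0 also at an unadjusted p under 0.05 and by DESeq2) and 8 did not pass edgeR's test, with the endothelial cadherin gene Cdh5 at 1.39. The other higher one was Csf1r, with 24, 20, 13 and 12 reads in d6PGCLC and 0 in every E12.5 PGC library. Cdh2 is also expressed in somatic and neural cells, and the part of such cells in its level was not tested.

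Of 10 germ cell markers, 4 were higher in d6PGCLC, 4 lower and 2 did not pass, beside 16.1% higher and 15.4% lower among all genes. Prdm1 and Dppa3 are the genes of the reporters by which d6PGCLC were collected, and Itgb3 (-0.72) encodes the integrin by which E12.5 PGC were, so that these 3 calls concern genes used in the sorts. Prdm1 (1.21), Dppa3 (0.85), Pou5f1 (0.74) and Tfap2c (0.65) were higher, and Kit (0.19) and Nanos3 (-0.22) did not pass. Dazl (-5.07), Ddx4 (-4.42), Itgb3 and Dnd1 (-0.59) were lower. Of 10 dissociation response genes, 7 were lower in d6PGCLC, 1 (Junb, 1.83) was higher and 2 did not pass. Among the lower ones, Fos, Egr1, Atf3 and Dusp1 overlapped between the groups. Fos and Dusp1 each kept the call in 7 of 8 fits with a library left out. Jun had 1485 reads in E12.5 PGC replicate 2 and 336, 408 and 325 in replicates 1, 3 and 4. The heat shock genes Hspa1a (-6.42) and Hspa1b (-5.16) led the lower ones, and stood at up to -4.65 and -3.39 with a library left out.

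For each member with a mean of at least 10 counts, the genes with the most similar pattern were sought among 11487 genes by Pearson's r of log2(CPM + 0.5) over the 8 libraries, as a description. These were Lctl (0.952) and Tmem167b (0.939) for Otx2, Ube2d1 (0.994) and Stard7 (0.991) for Pou3f1, and Thap2 (0.959) and Ccdc167 (0.953) for Fgf5. For Grhl2 they were Vps37b (0.967) and Dmwd (0.960), and for Cdh2 Angel2 (0.997) and Glis2 (0.996). The 8 libraries fall into 2 groups that each share their handling, and the search was wide, so that no p is given. No gene was nearest to more than one member.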

How the data were processed

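The authors deposited raw read counts per gene, without normalization, for the 8 libraries. Per their methods and the submitters' processing notes, single-end reads of stranded poly(A) libraries were aligned with STAR to GRCm38 (mm10) with ERCC sequences, and uniquely mapped reads were counted with QuasR on the exons of an isoform picked at random for each gene. Genes with overlapping promoters were thinned at random. Whether strand was used in counting is not given in the sources used here, so reads of a member and of an overlapping antisense gene (annotated for Pou3f1, Grhl2 and Cdh2) could not be separated. The isoform counted for a member was not identified, and levels per length used the deposited exonic length.

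RefSeq (GRCm38.p6) named 21907 of the 21950 genes. Counts were scaled with TMM and fitted with edgeR 4.0.16 in R 4.3.3 (glmQLFit and glmQLFTest, prior count 0.125, cell type as the only term, no filter on low counts). A gene was called where its p, adjusted by Benjamini-Hochberg across the whole table, did not exceed 0.05. SE came from the inverse information of the fit and the quasi-likelihood variance. Exact permutation tests used log2(CPM + 0.5). The fit was tested on simulated data, but that outcome is not reported here and no result rests on it. Within a group, libraries differed by more than sampling noise (3.19 to 20.8 in chi-square per degree of freedom).

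The members and lists were chosen with earlier results of these data known. Named genes were the members, the genes of each list most changed (up to 2 each way, past the test, averaging 10 counts or more), and defining markers. Some further list genes were named beside them. As alternatives, edgeR's likelihood ratio test, DESeq2 1.42.0, other scalings, a count filter, a prior count of 2, a replicate block and fits without each library were run. Oocyte libraries were not analysed here, and the result for 1 gene is not reported. The ratios planned with Zic2 were not computed.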

Additional observations from a re-analysis of the deposited data

Results flagged for a closer look

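In 3 of the 78 sets of 4 libraries examined, 1 library lay far from the other 3, where chance gives about 3.9. Hspa1a was at 144 CPM in E12.5 PGC replicate 2 and at 4.42 to 20.3 CPM in the other 3 of that group. Hspa1b was at 181 CPM in the same library and at 6.41 to 23.2 CPM in the others. Otx1, the paralogue of Otx2, was at 1.66 CPM in E12.5 PGC replicate 3 and at 0.722 to 0.873 CPM in the others. No level of the 6 measured primed factors was among these 3.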

How the results depend on the processing

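Of 565 values recomputed under an alternative, 519 kept their direction and side of the threshold or moved little, 7 lost the threshold, 1 gained it, 2 changed sign and 36 counts or ranks moved. With E12.5 PGC replicates 2 and 4 both left out, a choice made after the data were seen that takes out the highest E12.5 PGC levels of Otx2 and Fgf5 and so fixes the direction in which they move, Otx2 was called higher (1.05), Fgf5 was not called (-0.76), and the members called higher numbered 1 and those past 2 in absolute log2 fold change numbered 2. In that fit FGF receptors called higher numbered 1, gonadal somatic markers called higher 2 and dissociation response genes called higher 2. With each library left out in turn, the log2 fold change ranged from -2.003 to -1.17 for Fgf5, from -2.29 to -1.29 for Zic5 and from -0.043 to 0.38 for Grhl2, which was -0.043 without E12.5 PGC replicate 1 and -0.035 without replicate 3. The members past an absolute log2 fold change of 2 then numbered 1 to 2, as did FGF receptors called higher, catenins called lower, gonadal somatic markers called higher and dissociation response genes called higher. Relatives called higher then numbered 3 to 5. Ranks by RPKM in d6PGCLC ran from 1 to 2 for Otx2 and Grhl2, 3 to 4 for Pou3f1, 3 to 5 for Fgf5 and 4 to 5 for Cdh2, and in E12.5 PGC from 2 to 3 for Pou3f1 and Fgf5. The count filter (filterByExpr) removed Zic5, so that it has no value there, and left 0 relatives called lower, 1 FGF receptor called higher, 0 gonadal somatic markers called higher, 0 called lower and 3 germ layer markers called lower, since fewer genes were tested. The likelihood ratio test called 1 endothelial or blood marker lower.

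Deviations of same-numbered libraries from their group means correlated at r = 0.30, 0.11, -0.04 and 0.04. Differently numbered libraries lay between -0.199 and 0.143. With so few libraries, whether the numbers pair them cannot be decided from these values. With a replicate block the log2 fold changes were -2.38 for Cdh2, -1.47 for Fgf5, -1.76 for Zic5, -1.52 for Pou3f1, 0.59 for Otx2 and 0.15 for Grhl2, the members called were again 4, and 2 gonadal somatic markers were called higher. Permuted within replicate pairs as a block, the ratio of Cdh2 to Cdh1 (difference -2.80) did not pass, since 4 pairs give an exact permutation p of 1 in 8 at the lowest. Where a value changed, the cause was not tested except for the count filter. Depth limits Zic5 most, with 1 to 5 reads in each d6PGCLC library.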
